A study of Mus musculus with 15 samples.

Results

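The proteasome genes were examined in NIH3T3 mouse fibroblasts that were starved and stimulated with PDGF, with and without inhibitors of mTORC1 or of translation. Members were all protein-coding genes of the GENCODE M21 mouse annotation whose symbol starts with Psma to Psmg followed by a digit, and the reads of their transcripts were summed per gene. The rule matched 50 of 55266 annotated genes. One of them, *Psmc3ip*, encodes a meiotic recombination factor that is matched by its symbol alone, and it had 9 reads in all libraries together. The other 49 genes belong to the proteasome, 19 to its core, 23 to its caps and activators and 7 to its assembly factors.

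The RNA came from 15 libraries in 5 groups of 3. The control line, in which doxycycline switches on histone H2A fused to the fluorescent protein mCherry, made up 4 groups: no PDGF, PDGF alone, PDGF together with rapamycin, and PDGF together with cycloheximide, a blocker of translation. The fifth group was the line with inducible H2A-TerminaTOR, described by the submitters as an inhibitor of nuclear mTORC1 activity, and received cycloheximide and PDGF. Cells of both lines were starved before stimulation. Each fusion is thus represented by 1 stable line, TerminaTOR was measured under cycloheximide alone, and any difference between the lines other than the fusion partner cannot be told apart from the effect of TerminaTOR. The sources used here do not give doses, times or the doxycycline schedule. Nor do they say whether replicate libraries were separate cultures, and p-values then measure the spread between libraries, which may be technical.

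The proteasome is the protease that removes most short-lived and damaged proteins, which are usually marked for it by a chain of ubiquitin. Its barrel-shaped core is built of rings of alpha subunits, which gate the entrance, and rings of beta subunits, some of which carry the proteolytic sites. A regulatory cap, made of an ATPase base that unfolds the substrate and a lid that cuts off the ubiquitin, sits on the end of the core, and smaller activators can take its place. Dedicated chaperones help to assemble the core and the base. In mammalian cells the transcription factor NRF1, encoded by *Nfe2l1*, is known to raise the subunit genes together when proteasome activity falls short, and mTORC1 has been linked to the abundance and activity of proteasomes in several cell types. Inducible beta subunits replace the catalytic ones after interferon and shape the peptides shown to T cells.

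The deposited counts are per transcript, and many subunits had few or no reads. Of the 49 genes, 6 had no read in any library, 15 had 4 to 103 reads in all libraries together and were removed by the filter on low counts, and 28 were tested, 10 of the core, 14 of the caps and activators and 4 assembly factors. The counting program that the submitters name discards, by default, reads that overlap several features, and its part in the low counts was not tested. The genes without reads had 78 to 1927 bases that belong to a single transcript, those removed by the filter 81 to 4764 and the 28 tested 474 to 6887, ranges that overlap. These ranges count all transcripts of a gene. The protein-coding transcripts of *Psmb6* and *Psmc5* had 0 such bases. A count of 0 does not show that a subunit was not expressed. Levels are given as TMM-normalized CPM, the reads of a gene relative to the library total after scaling by trimmed means, and they cannot be compared between genes, since genes differ in length and in transcript-specific sequence.

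The catalytic subunits were almost unseen in this counting. *Psmb5*, the chymotrypsin-like subunit, had 0 reads in all 15 libraries, which for counting error allows up to 0.0442 CPM over the pooled libraries. *Psmb6* had 68 reads, none on a protein-coding transcript, and per library it ranged from 0 to 12 reads. Its 1 protein-coding transcript has 0 bases that belong to it alone. Counting that discards reads on several features can therefore assign it none, whatever its expression. *Psmb7* passed the filter with 112 reads, all on a retained-intron transcript, and ranged from 0 to 21 reads per library. Among their inducible counterparts, *Psmb9* had 0 reads, *Psmb8* 4 reads and *Psmb10* 37 reads. *Psmb10* had 3 reads in the 3 libraries without PDGF, 2 with PDGF, 12 with rapamycin, 12 with cycloheximide and 8 in TerminaTOR cells, and 10 of the 12 rapamycin reads came from replicate 2. *Psmb7* was not called in any comparison. It stood at 0, 1.09 and 1.87 CPM without PDGF, 1.38, 2.33 and 1.66 CPM with PDGF, 2.51, 1.85 and 2.14 CPM with rapamycin and PDGF, 1.03, 0.504 and 1.73 CPM with cycloheximide and PDGF and 3.28, 1.18 and 2.44 CPM in TerminaTOR cells, and each group overlapped the group it was compared with. These counts therefore give no comparison of the catalytic sites.

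Reads also differed in the kind of transcript that carried them. Over all members and libraries, 95.8% of reads fell on protein-coding transcripts, 3.40% on transcripts annotated as retained introns and 0.779% on other types. The 5 genes with most reads, *Psme4*, *Psmd7*, *Psmc2*, *Psme3* and *Psma5*, held 80.8% of the members' 127205 reads. Of the 28 genes tested, 16 had at least 80% of their reads on protein-coding transcripts and 12 had less. *Psmd8*, *Psmg1*, *Psma7* and *Psmb4* belong to those 12, and most reads counted for them lay on transcripts that are not annotated as coding. Their coding transcripts hold 691 of 1545, 174 of 474, 268 of 2159 and 328 of 1096 of the bases that belong to a single transcript. The split of reads is therefore not a measure of how abundant each type was, and the part of these bases in it was not tested. Summed over members, retained-intron transcripts took 58.3 to 69.4 CPM without PDGF, 68.3 to 70.6 CPM with PDGF, 85.7 to 88.6 CPM with rapamycin, 45.7 to 56.9 CPM with cycloheximide and 53.1 to 58.2 CPM in TerminaTOR cells. In CPM the rapamycin libraries were the highest and did not overlap any other group. As a share of the members' reads they overlapped the unstimulated libraries, at 4.05% to 4.58% beside 3.58% to 4.50%. Retained-intron transcripts of other genes were not examined. The comparisons were also run on protein-coding transcripts alone, as an alternative.

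**Figure D1:**
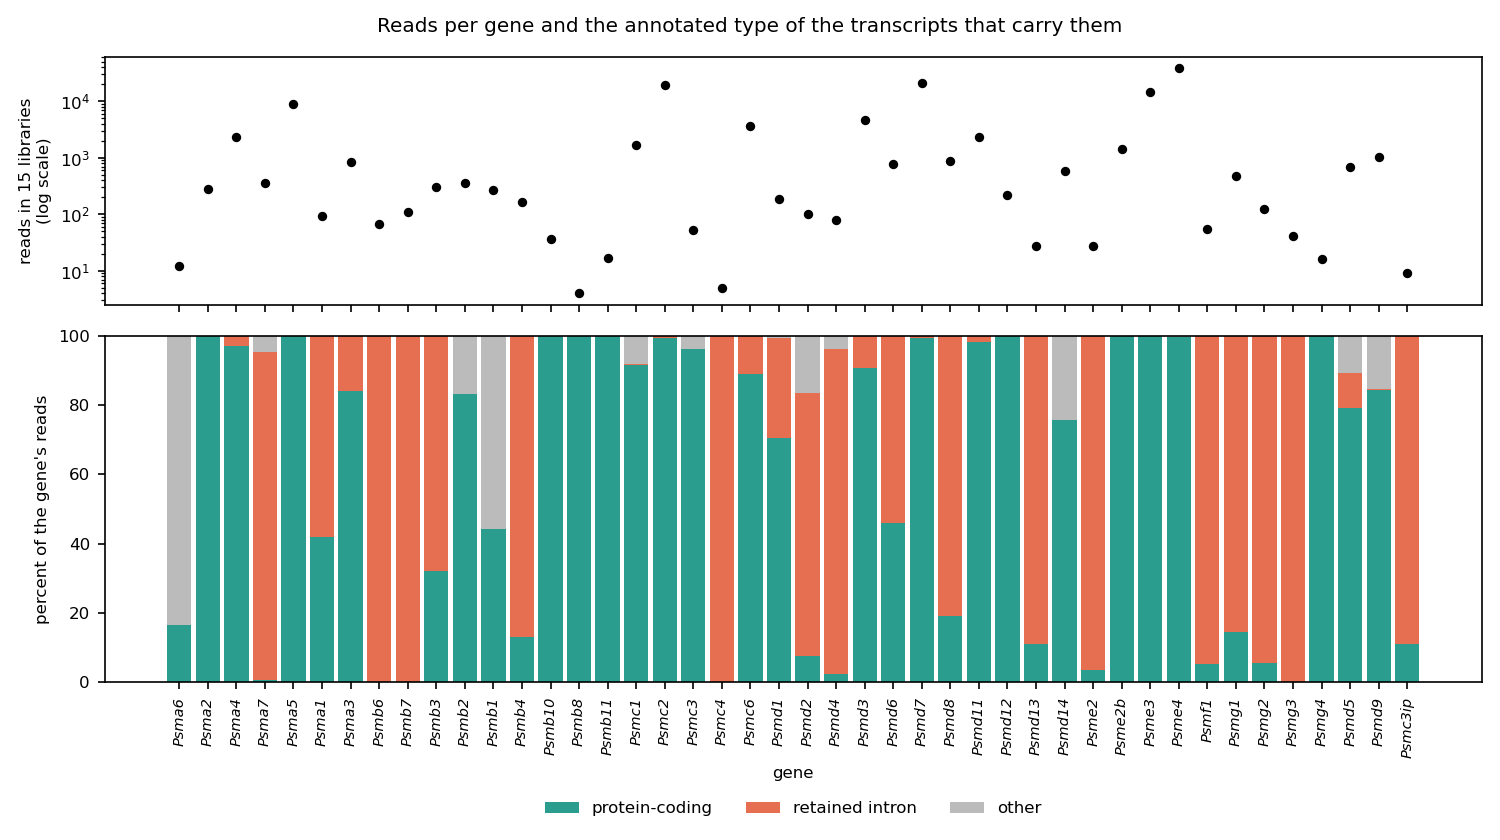
Reads of each gene summed over the 15 libraries (upper panel, log scale) and the percent of them on protein-coding, retained-intron and other transcripts (lower panel), for genes with at least 1 read. *Psme4*, *Psmd7*, *Psmc2*, *Psme3* and *Psma5* hold 80.8% of the reads on almost purely protein-coding transcripts, whereas *Psmb6* and *Psmb7* have none there. The protein-coding transcript of *Psmb6* has 0 bases that belong to it alone, and that of *Psmb7* has 167.

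The libraries held 3466202 to 6777780 counts, and members took 0.180% to 0.202% of them. All 9 fibroblast markers were detected, at a summed 4643 to 9149 CPM, lowest in the rapamycin libraries at 4643 to 5027 CPM. Of 6 macrophage markers 5 were detected, at 6.72 to 11.3 CPM without PDGF and 16.0 to 26.1 CPM in the other groups. *Cd14*, with 853 reads, and *Lyz2*, with 225, passed the filter, while *Adgre1* was at 0. The 4 epithelial markers summed to 0.475 to 3.88 CPM and the 3 endothelial markers to 0.654 to 4.39 CPM. Among the epithelial ones *Epcam* and *Krt18* were at 0, *Cdh1* had 8 reads in all, and *Krt8* passed the filter with 115. Among the endothelial ones *Cdh5* passed it with 140 reads. Mitochondrially encoded genes took 11.1% to 12.2% of counts without PDGF, 8.69% to 9.30% with PDGF, 9.85% to 11.0% with rapamycin, 6.28% to 6.64% with cycloheximide and 6.32% to 6.63% in TerminaTOR cells. This share moved with the groups, and its part in the results was not tested.

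More proteasome genes rose than fell with PDGF. Of the 28 genes tested, 10 rose, 4 fell and 14 did not pass the test at an adjusted p of 0.05, while over all 10603 genes tested 20.1% rose and 16.9% fell, 37% in all. Most rises lay in the caps and activators, where 8 of 14 rose and 1 fell, with a median log2 change of 0.34. In the core 1 of 10 rose and 1 fell, and among the assembly factors 1 of 4 rose and 2 fell. The median over the 28 genes was 0.20 on the log2 scale, beside −0.0055 over all genes. In 13 of the 28 the libraries of the 2 groups did not overlap, against 46.2% of all genes. With each library of the 2 groups left out in turn, 7 to 9 rose, and 7 of the 14 calls were kept in all these fits. Only 4, *Psmd14*, *Psmd8*, *Psme3* and *Psmg1*, were also kept under every other alternative in which they could be tested. Falls numbered 2 without replicate 1 or 2 of the unstimulated group or replicate 3 of the PDGF group, and 1 without replicate 1 of the PDGF group. This balance rests on the scaling of the libraries. With library totals in place of the trimmed mean, 4 of the 28 rose and 7 fell, and over all genes 1379 rose and 3111 fell, because that scaling moves the median of all genes to −0.26.

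Rapamycin added to PDGF, which inhibits mTORC1 in the whole cell, left the group without a common direction. Compared with PDGF alone, 5 of 28 genes rose and 4 fell, beside 16.3% and 16.1% of all genes (32.3% in either direction), and the median log2 change was −0.030. The groups did not overlap in 12 of the 28, against 40.9% of all genes. The activators held 2 of the rises, the lid 2 rises and 1 fall, the core 1 of each and the assembly factors 2 falls, and none of the 4 base genes passed the test. With library totals 2 rose and 7 fell. Rises numbered 3 without any 1 of the PDGF libraries or replicate 1 of rapamycin, and falls 2 without replicate 2 of PDGF. Cycloheximide with PDGF against PDGF gave 6 rises and 5 falls, beside 21% and 19.6% of all genes (40.6% in either direction), with a median of 0.0018, and in 13 of the 28 the groups did not overlap, against 50.6% of all genes. Here the lid held 3 rises and no fall among 7 genes, and the base 2 falls and no rise among 4. With library totals 3 rose and 6 fell, and 3 rose without replicate 2 of the cycloheximide group, while 3 fell without replicate 2 of PDGF and 2 without replicate 3 of cycloheximide. TerminaTOR against mCherry, both with cycloheximide and PDGF, gave no call among the 28 genes, beside 2.35% of all genes higher and 2.57% lower (4.92% in all). The PDGF, rapamycin and cycloheximide comparisons share the PDGF libraries, so their values for a gene are not independent.

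**Figure D2:**
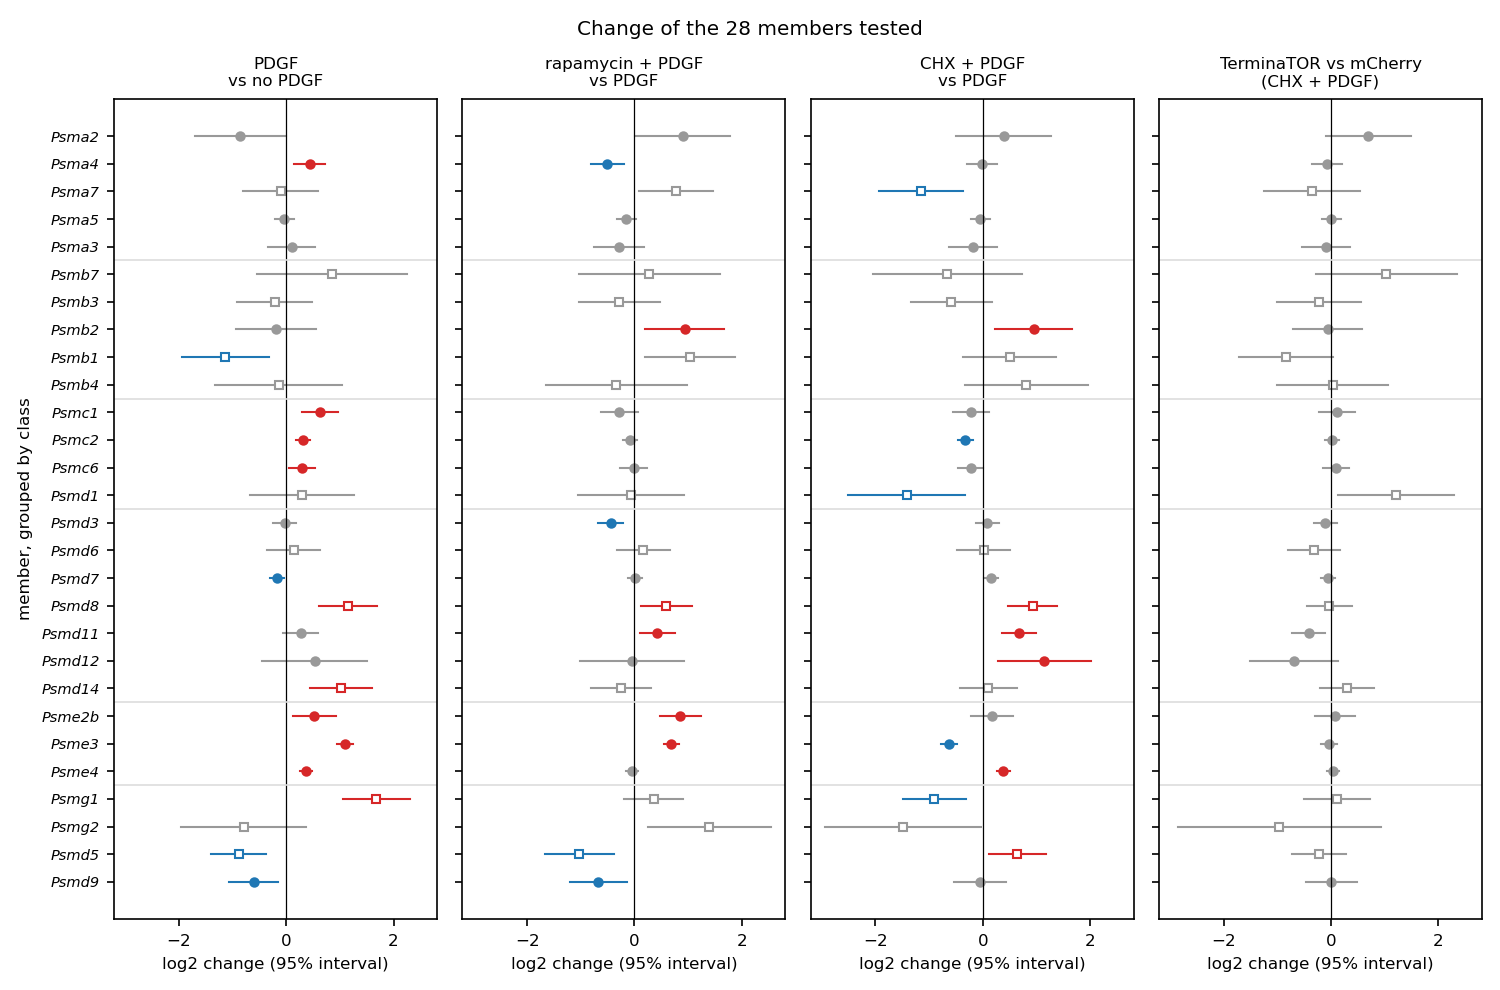
Log2 change of the 28 genes tested in 4 comparisons (x axis, points with 95% intervals from edgeR), grouped from top to bottom into core alpha, core beta, base, lid, activators and assembly factors. Red marks genes called higher, blue called lower and grey not called. Circles mark genes with at least 80% of reads on protein-coding transcripts and open squares the others. With PDGF 10 genes are red and 4 blue, with TerminaTOR all 28 are grey, and with library totals as scaling the PDGF counts become 4 and 7.

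Summed by class, the levels followed a few deeply read genes. The activators, with their inhibitor gene *Psmf1*, summed to 517 to 571 CPM without PDGF, 791 to 844 CPM with PDGF, 926 to 1001 CPM with rapamycin, 862 to 907 CPM with cycloheximide and 884 to 909 CPM in TerminaTOR cells. The base stood at 332 to 345 CPM without PDGF and 415 to 437 CPM with PDGF, and at 363 to 445, 335 to 366 and 341 to 375 CPM in the rapamycin, cycloheximide and TerminaTOR groups. The core gave 197 to 227 CPM without PDGF and 205 to 228 CPM with it, ranges that overlapped, as did those of all 5 groups between 184 and 228 CPM. Assembly factors ranged from 35.2 to 50.1 CPM without PDGF and from 28.7 to 37.5 CPM over the other 4 groups. These sums are descriptions and carry no test.

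Sequences upstream of the start sites are shown because 6 of the 10 genes that rose with PDGF held a short match there, a share that was not tested against other genes. RefSeq windows on GRCm38.p6, from 250 bases before to 50 bases after each start, were found for 41 of the 49 genes, giving 44 windows. Searched on both strands, CCGGAAG, the core site of ETS factors, was in 15 of the 44 windows (34.1%) and in 8.86% of 32851 windows of all genes. CCAAT was in 14 windows (31.8%, beside 37.4%), CACGTG, an E-box, in 4 (9.09%, beside 7.15%), and TGACNNNGC, an antioxidant response element of the type that NRF1 and NRF2 are known to bind, in 6 (13.6%, beside 12.4%). The 4 motifs do not contain one another, and the windows were not matched for base composition. Of the 10 genes that rose with PDGF, all with a window, 6 held CCGGAAG: *Psmc1*, *Psmc2*, *Psmc6*, *Psme3*, *Psme4* and *Psmg1*. It was in 0 of the 2 windows available for the 4 genes that fell and in 3 of the 10 available for the 14 not called. A match is a description of the letters and not evidence of binding. *Psma4*, *Psmd8*, *Psmd14* and *Psme2b* rose without CCGGAAG, and *Psmd9* fell with an E-box and an antioxidant response element. The genes printed below were picked by their change and their match, so they do not represent the group. The 250 bases before the start of 4 genes that rose and hold the match, and of *Psmd5*, which fell and holds none of the 4 motifs, are printed on the strand of the gene, with capitals on matches to any of the 4 motifs.

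*Psme3*, chr11:101315963-101316212, plus strand: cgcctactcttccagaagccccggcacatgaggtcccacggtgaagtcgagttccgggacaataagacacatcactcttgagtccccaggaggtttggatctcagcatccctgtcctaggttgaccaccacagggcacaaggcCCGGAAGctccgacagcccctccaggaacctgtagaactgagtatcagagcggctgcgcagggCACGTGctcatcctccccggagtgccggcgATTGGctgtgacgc
*Psme4*, chr11:30771525-30771774, plus strand: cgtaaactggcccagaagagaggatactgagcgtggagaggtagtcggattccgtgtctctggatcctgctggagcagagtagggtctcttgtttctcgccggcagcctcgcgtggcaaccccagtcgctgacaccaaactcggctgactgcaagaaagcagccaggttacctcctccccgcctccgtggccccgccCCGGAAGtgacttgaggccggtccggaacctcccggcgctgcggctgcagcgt
*Psmc1*, chr12:100109952-100110201, plus strand: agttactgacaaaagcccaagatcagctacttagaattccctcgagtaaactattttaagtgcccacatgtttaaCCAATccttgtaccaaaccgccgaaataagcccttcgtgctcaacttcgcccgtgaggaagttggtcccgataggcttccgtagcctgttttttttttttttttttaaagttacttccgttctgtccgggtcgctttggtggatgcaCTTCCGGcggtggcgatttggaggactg
*Psmg1*, chr16:95990961-95991210, minus strand: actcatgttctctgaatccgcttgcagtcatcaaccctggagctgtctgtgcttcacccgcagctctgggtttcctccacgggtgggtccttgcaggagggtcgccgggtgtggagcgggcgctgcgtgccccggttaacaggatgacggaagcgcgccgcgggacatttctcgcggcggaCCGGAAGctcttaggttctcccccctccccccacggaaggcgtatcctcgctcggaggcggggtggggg
*Psmd5*, chr2:34870963-34871212, minus strand: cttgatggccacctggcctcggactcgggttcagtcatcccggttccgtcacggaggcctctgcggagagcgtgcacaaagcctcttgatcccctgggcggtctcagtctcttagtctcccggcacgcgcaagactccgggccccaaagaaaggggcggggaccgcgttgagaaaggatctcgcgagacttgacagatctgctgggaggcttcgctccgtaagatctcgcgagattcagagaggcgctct

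In these lines *Psme3* carries the ETS core, the E-box and, on the opposite strand, the CCAAT box. *Psmc1* carries the CCAAT box and, on the opposite strand, the ETS core. Within the printed bases *Psme4* and *Psmg1* carry the ETS core alone. The window of *Psme4* also holds an antioxidant response element at −7, on the opposite strand, which runs past the printed end and is not capitalized.

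The activators gave the clearest changes. *Psme3* (chr11:101316213-101323537 on the plus strand of GRCm38) encodes PA28 gamma, a nuclear activator that opens the core for proteins without ubiquitin. It stood at 125, 129.8 and 114 CPM without PDGF, 259, 257 and 271 CPM with PDGF, 414, 439 and 412 CPM with rapamycin and PDGF, 179, 172 and 157 CPM with cycloheximide and PDGF and 171, 163 and 159.5 CPM in TerminaTOR cells. The libraries of the PDGF group lay above all those without PDGF, those with rapamycin above all others, and the cycloheximide and TerminaTOR libraries between the unstimulated and the PDGF libraries. With PDGF *Psme3* rose by 1.10 ± 0.073 SE on the log2 scale (edgeR adjusted p = 1.29e-21), from 123 ± 8.19 to 262 ± 7.83 CPM (SD, n = 3). Rapamycin added a further 0.68 ± 0.069 SE (edgeR adjusted p = 3.40e-13), to 422 ± 15.1 CPM. Cycloheximide lowered it relative to PDGF, with a log2 change of −0.63 ± 0.071 SE (edgeR adjusted p = 1.29e-11). These 3 calls were kept under every alternative and with any library left out.

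*Psme4* (chr11:30771726-30880361 on the plus strand of GRCm38) encodes PA200, a large nuclear activator known for the turnover of acetylated histones, and it had the most reads of all members, 38539. It stood at 409, 424 and 389 CPM without PDGF, 518, 509.7 and 551 CPM with PDGF, 482, 522 and 529 CPM with rapamycin and PDGF, 709.6, 667 and 688 CPM with cycloheximide and PDGF and 710.2, 701 and 706 CPM in TerminaTOR cells. The 3 PDGF and 3 rapamycin libraries overlapped each other, all lay above the unstimulated libraries, and the 6 libraries with cycloheximide lay above all of them. *Psme4* rose by 0.37 ± 0.059 SE with PDGF (edgeR adjusted p = 2.22e-07) and by 0.39 ± 0.058 SE with cycloheximide over PDGF (edgeR adjusted p = 6.17e-08). The PDGF rise was not called with library totals as scaling (log2 change 0.12, edgeR adjusted p = 0.0753), while the cycloheximide rise was kept under all alternatives. With rapamycin its log2 change was −0.043 ± 0.059 SE (95% interval −0.16 to 0.074, edgeR adjusted p = 0.623), and with library totals it was called lower at −0.17. Under cycloheximide *Psme3* thus fell and *Psme4* rose against the same PDGF libraries.

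*Psme2b* (chr11:48945354-48946190 on the minus strand of GRCm38) is a copy of *Psme2*, which encodes PA28 beta, an interferon-inducible activator. Their transcripts *Psme2b*-201 and *Psme2*-201 are 99.3% identical over 716 aligned bases. Reads may thus have been split between the 2 genes, and the source of this signal is uncertain. *Psme2* itself did not pass the filter. *Psme2b* stood at 12.0, 15.7 and 11.4 CPM without PDGF, 13.8, 22.7 and 19.3 CPM with PDGF, 28.1, 37.5 and 35.6 CPM with rapamycin and PDGF, 17.8, 21.9 and 23.2 CPM with cycloheximide and PDGF and 27.5, 18.9 and 19.2 CPM in TerminaTOR cells. The rapamycin libraries were above all others, while the PDGF and unstimulated libraries overlapped. It rose by 0.85 ± 0.19 SE with rapamycin over PDGF (edgeR adjusted p = 0.000203), a call kept under all alternatives. Its rise with PDGF, 0.53 ± 0.20 SE (edgeR adjusted p = 0.0349), was lost without replicate 1 or 3 of the unstimulated group or replicate 2 or 3 of the PDGF group (edgeR adjusted p up to 0.221), and with DESeq2, limma-voom, no filter or library totals.

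In the ATPase base, 3 of the 4 genes tested rose with PDGF. *Psmc2* (chr5:21785283-21803787 on the plus strand of GRCm38), the Rpt1 ATPase, stood at 267, 259.6 and 268 CPM without PDGF, 317, 326 and 346 CPM with PDGF, 285, 347 and 303 CPM with rapamycin and PDGF, 260.0, 277 and 255 CPM with cycloheximide and PDGF and 257, 276 and 270.3 CPM in TerminaTOR cells. All PDGF libraries lay above all unstimulated ones, and the libraries with cycloheximide overlapped the unstimulated ones. *Psmc2* rose by 0.32 ± 0.068 SE with PDGF (edgeR adjusted p = 1e-04) and had a log2 change of −0.32 ± 0.068 SE with cycloheximide over PDGF (edgeR adjusted p = 7.15e-05), the latter kept under all alternatives. *Psmc1* (chr12:100110154-100123405 on the plus strand of GRCm38), the Rpt2 ATPase that takes part in opening the core's gate, stood at 17.8, 20.7 and 19.4 CPM without PDGF, 32.2, 31.8 and 25.7 CPM with PDGF, 20.1, 25.2 and 28.0 CPM with rapamycin and PDGF, 25.0, 28.7 and 23.0 CPM with cycloheximide and PDGF and 25.0, 31.5 and 26.2 CPM in TerminaTOR cells. Its PDGF libraries lay above the unstimulated ones, and it rose by 0.62 ± 0.17 SE (edgeR adjusted p = 0.00194). *Psmc6*, the Rpt4 ATPase, rose by 0.29 ± 0.12 SE (edgeR adjusted p = 0.0485). That call was lost on leaving out any of the 6 libraries except replicate 2 of the unstimulated group, with adjusted p up to 0.268, and by DESeq2, without the filter and on protein-coding transcripts alone (0.27, edgeR adjusted p = 0.0614). With library totals none of the 3 rises was called, at log2 changes of 0.37 for *Psmc1*, 0.064 for *Psmc2* and 0.043 for *Psmc6*.

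*Psmd1*, the large scaffold Rpn2 of the base, had 70.4% of its reads on protein-coding transcripts and few reads per library. It stood at 2.36, 3.27 and 2.99 CPM without PDGF, 3.30, 4.65 and 2.69 CPM with PDGF, 2.51, 6.77 and 1.19 CPM with rapamycin and PDGF, 1.03, 2.02 and 0.960 CPM with cycloheximide and PDGF and 2.97, 3.15 and 3.05 CPM in TerminaTOR cells. It fell with cycloheximide, with a log2 change of −1.42 ± 0.54 SE (edgeR adjusted p = 0.0303), a call lost without replicate 2 of the PDGF group or replicate 1 or 3 of the cycloheximide group (edgeR adjusted p up to 0.132), and without the filter. Of the other base genes, *Psmc3*, *Psmc4*, *Psmd2* and *Psmd4* had too few reads to test and *Psmc5* had none.

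**Figure D3:**
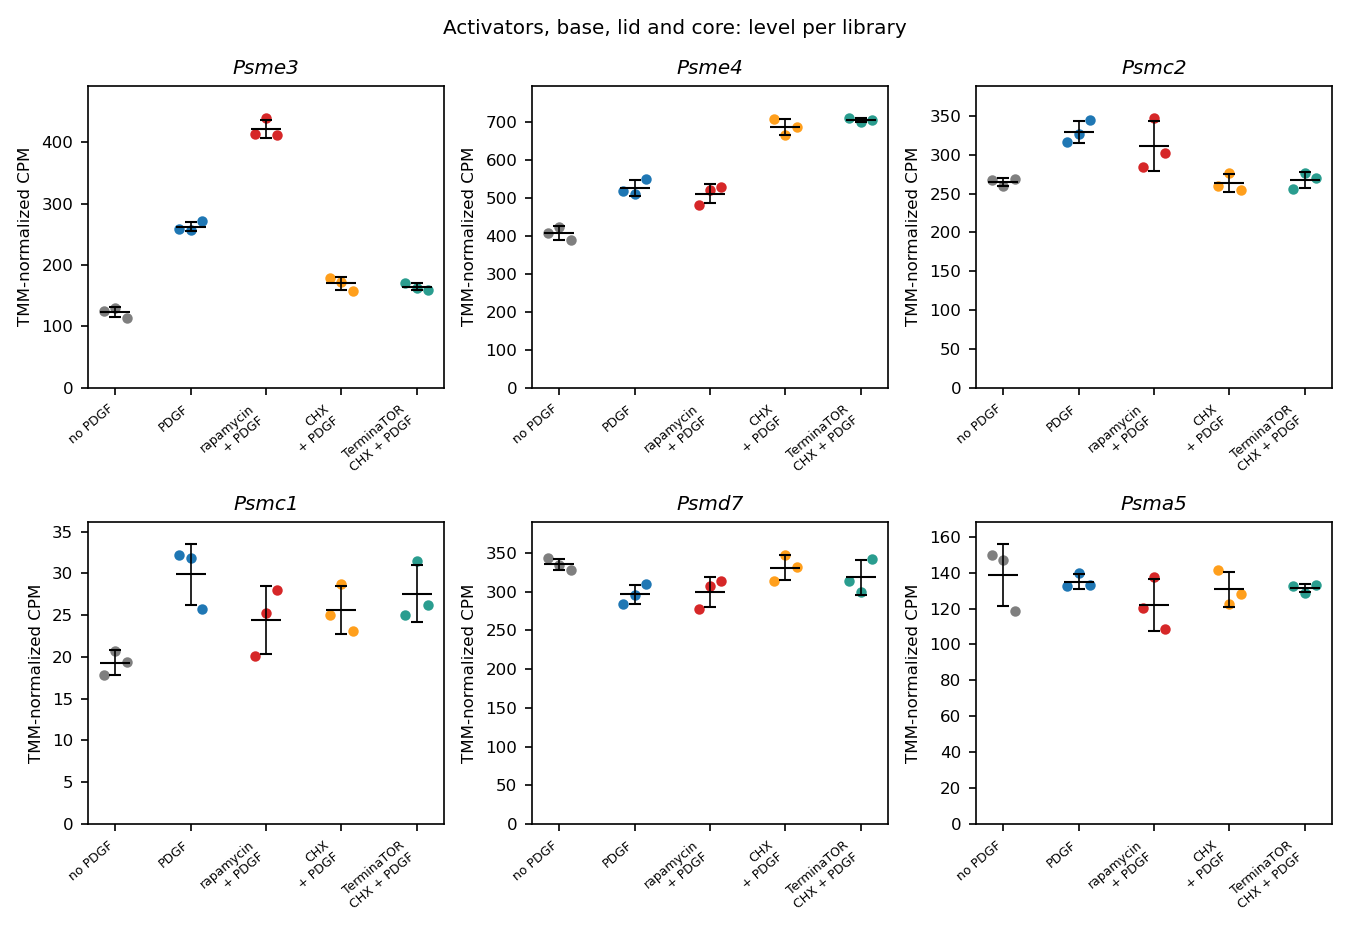
Level of 6 genes in each library (points, TMM-normalized CPM, y axis from 0) by group, with the mean (horizontal line) and SD (error bars) of 3 libraries; CHX is cycloheximide. *Psme3* runs from 123 CPM without PDGF to 262 with PDGF and 422 with rapamycin, *Psme4* is highest in the 2 groups with cycloheximide, and *Psma5* overlaps between all groups.

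In the lid the genes moved in different directions. *Psmd14* (chr2:61711694-61800376 on the plus strand of GRCm38) encodes Rpn11, the enzyme that cuts ubiquitin chains from substrates. It stood at 6.18, 2.84 and 4.49 CPM without PDGF, 8.26, 11.1 and 8.49 CPM with PDGF, 7.52, 7.38 and 8.31 CPM with rapamycin and PDGF, 10.5, 9.58 and 9.80 CPM with cycloheximide and PDGF and 11.2, 12.2 and 13.7 CPM in TerminaTOR cells. Each PDGF library lay above the unstimulated ones, and *Psmd14* rose by 1.02 ± 0.29 SE (edgeR adjusted p = 0.00294), a call kept under all alternatives. *Psmd7* (chr8:107580381-107588464 on the minus strand of GRCm38), the partner Rpn8 that holds Rpn11 in place, stood at 343, 335 and 328 CPM without PDGF, 285, 295 and 309.7 CPM with PDGF, 278, 308 and 313 CPM with rapamycin and PDGF, 314, 348 and 332 CPM with cycloheximide and PDGF and 313, 299 and 343 CPM in TerminaTOR cells. It fell slightly with PDGF, with a log2 change of −0.18 ± 0.066 SE (edgeR adjusted p = 0.0288), and the call was lost without replicate 1 or 2 of either group (edgeR adjusted p up to 0.179) or without the filter. The 2 partners thus moved in opposite directions with PDGF, by very different sizes.

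*Psmd3* (chr11:98682554-98695979 on the plus strand of GRCm38), the lid subunit Rpn3, fell with rapamycin. It stood at 75.6, 80.1 and 66.4 CPM without PDGF, 70.8, 70.6 and 76.4 CPM with PDGF, 56.3, 54.4 and 49.9 CPM with rapamycin and PDGF, 70.3, 86.0 and 75.5 CPM with cycloheximide and PDGF and 64.8, 77.3 and 73.2 CPM in TerminaTOR cells. The rapamycin libraries were below all others, and the log2 change against PDGF was −0.44 ± 0.11 SE (edgeR adjusted p = 0.00122), a call kept under all alternatives. *Psmd11* (chr11:80428615-80473248 on the plus strand of GRCm38), the lid subunit Rpn6, stood at 23.8, 21.2 and 26.2 CPM without PDGF, 33.6, 30.5 and 22.6 CPM with PDGF, 39.0, 34.8 and 41.6 CPM with rapamycin and PDGF, 52.9, 33.0 and 50.5 CPM with cycloheximide and PDGF and 31.7, 36.6 and 34.8 CPM in TerminaTOR cells. It rose by 0.68 ± 0.16 SE with cycloheximide over PDGF (edgeR adjusted p = 0.000244), kept under all alternatives. Its rise with rapamycin, 0.43 ± 0.16 SE (edgeR adjusted p = 0.0332), was lost without replicate 3 of the PDGF group or replicate 1 or 3 of the rapamycin group (edgeR adjusted p up to 0.31), by DESeq2, without the filter and with library totals. *Psmd12*, the subunit Rpn5, rose by 1.15 ± 0.43 SE with cycloheximide (edgeR adjusted p = 0.0279), from 1.38, 2.33 and 3.73 to 5.79, 6.05 and 5.19 CPM, and this call was lost without replicate 1 or 2 of either group (edgeR adjusted p up to 0.16), without the filter and with library totals.

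*Psmd8* (chr7:29174188-29180701 on the minus strand of GRCm38), the subunit Rpn12, gave different results by transcript type. Its summed level was 5.63, 3.71 and 3.55 CPM without PDGF, 9.91, 8.79 and 10.1 CPM with PDGF, 16.4, 15.4 and 12.1 CPM with rapamycin and PDGF, 20.3, 18.4 and 16.7 CPM with cycloheximide and PDGF and 18.6, 20.6 and 14.3 CPM in TerminaTOR cells. All 12 libraries that received PDGF lay above the 3 that did not. By edgeR it rose by 1.15 ± 0.27 SE with PDGF (adjusted p = 0.000346), by 0.60 ± 0.24 SE with rapamycin over PDGF (adjusted p = 0.0486) and by 0.94 ± 0.23 SE with cycloheximide over PDGF (adjusted p = 0.000569). Only a minority of these reads lay on protein-coding transcripts: 9 reads without PDGF, 27 with PDGF, 23 with rapamycin, 62 with cycloheximide and 47 in TerminaTOR cells, beside 58, 92, 137, 196 and 224 on retained-intron transcripts. With protein-coding transcripts alone the PDGF rise was 1.91 (edgeR adjusted p = 0.0129), the rapamycin change turned to −0.017 (edgeR adjusted p = 0.985) and the cycloheximide rise was not called (edgeR adjusted p = 0.158). The rapamycin call was also lost without any 1 of the PDGF libraries or without replicate 1 or 2 of the rapamycin group (edgeR adjusted p up to 0.169).

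Few of the 10 core genes tested were called. With PDGF, rapamycin and cycloheximide 1 rose and 1 fell each time (20%, beside 37%, 32.3% and 40.6% of all genes). Their log2 changes ran from −1.14 to 0.85, −0.50 to 1.03 and −1.15 to 0.95 in these comparisons. Their reads ranged from 112 for *Psmb7* to 8906 for *Psma5*, so a missing call does not show that a gene was unchanged. *Psma5* (chr3:108256926-108279974 on the plus strand of GRCm38), an alpha ring subunit and the most deeply read of the core, stood at 149.9, 147 and 119 CPM without PDGF, 132, 139.6 and 133 CPM with PDGF, 120.0, 137 and 109 CPM with rapamycin and PDGF, 141, 123 and 128 CPM with cycloheximide and PDGF and 132, 129 and 133 CPM in TerminaTOR cells. All groups overlapped, and its log2 change with PDGF was −0.036 ± 0.088 SE (95% interval −0.21 to 0.14) and with rapamycin −0.15 ± 0.090 SE (95% interval −0.33 to 0.030). Without replicate 2 of the rapamycin group the latter was called, at −0.25 (edgeR adjusted p = 0.0467), and with library totals *Psma5* was called lower with PDGF (−0.29) and with rapamycin (−0.28). *Psma4* (chr9:54950790-54958030 on the plus strand of GRCm38), another subunit of the alpha ring, stood at 34.0, 26.4 and 28.6 CPM without PDGF, 35.5, 43.7 and 41.2 CPM with PDGF, 27.9, 26.8 and 30.2 CPM with rapamycin and PDGF, 36.4, 45.6 and 38.0 CPM with cycloheximide and PDGF and 32.8, 37.7 and 44.5 CPM in TerminaTOR cells. It rose by 0.43 ± 0.15 SE with PDGF (edgeR adjusted p = 0.0136) and, with rapamycin over PDGF, had a log2 change of −0.50 ± 0.15 SE (edgeR adjusted p = 0.00658). The rapamycin fall was kept under all alternatives, and the rise was lost without replicate 2 of either group (edgeR adjusted p up to 0.0707) and with library totals. The rapamycin libraries of *Psma4* lay below those of PDGF, within or near the range of the unstimulated ones.

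Of the constitutive beta subunits, *Psmb2* stood at 5.27, 2.40 and 3.93 CPM without PDGF, 3.86, 3.36 and 3.11 CPM with PDGF, 7.24, 7.07 and 5.46 CPM with rapamycin and PDGF, 6.62, 7.82 and 5.57 CPM with cycloheximide and PDGF and 6.40, 7.47 and 4.88 CPM in TerminaTOR cells. It rose by 0.93 ± 0.37 SE with rapamycin (edgeR adjusted p = 0.0418) and by 0.95 ± 0.36 SE with cycloheximide (edgeR adjusted p = 0.0268). Leaving out single libraries lost the rapamycin call in 5 of 6 cases, all but replicate 3 of the rapamycin group, and the cycloheximide call in 4 of 6, without replicate 2 or 3 of the PDGF group or replicate 1 or 2 of the cycloheximide group, with adjusted p up to 0.137 and 0.109. Both were also lost with library totals, without the filter and on protein-coding transcripts alone, at 0.85 (edgeR adjusted p = 0.0796) and 0.86 (edgeR adjusted p = 0.0597). *Psmb1* fell with PDGF, with a log2 change of −1.14 ± 0.41 SE (edgeR adjusted p = 0.0213), from 5.09, 4.14 and 8.41 to 1.93, 3.36 and 2.69 CPM. This was lost without replicate 3 of the unstimulated group or replicate 1 or 3 of the PDGF group (edgeR adjusted p up to 0.203), without the filter, and on protein-coding transcripts alone, which held 44.2% of its reads (−0.85, edgeR adjusted p = 0.259). *Psma7*, an alpha subunit read almost only through retained-intron transcripts, fell with cycloheximide, with a log2 change of −1.15 ± 0.39 SE (edgeR adjusted p = 0.0148), lost without replicate 2 of the PDGF group or replicate 3 of the cycloheximide group (edgeR adjusted p up to 0.185). *Psma2*, *Psma3*, *Psmb3*, *Psmb4* and *Psmb7* were not called in any comparison with all libraries. Without replicate 3 of the PDGF group *Psma2* was called lower with PDGF (−1.62) and higher with rapamycin (1.67; edgeR adjusted p = 0.0158 and 0.0172).

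Among the assembly factors, the core chaperone gene *Psmg1* rose and the base chaperone genes *Psmd5* and *Psmd9* fell with PDGF. The other core chaperone gene tested, *Psmg2*, was not called. *Psmg1* (chr16:95979933-95990960 on the minus strand of GRCm38) encodes PAC1, which with PAC2 guides the formation of the alpha ring. It stood at 2.54, 3.05 and 3.93 CPM without PDGF, 11.3, 7.24 and 12.0 CPM with PDGF, 14.8, 11.4 and 13.1 CPM with rapamycin and PDGF, 4.96, 6.81 and 4.80 CPM with cycloheximide and PDGF and 7.18, 4.52 and 5.80 CPM in TerminaTOR cells. The PDGF and rapamycin libraries lay above all others. *Psmg1* rose by 1.68 ± 0.31 SE with PDGF (edgeR adjusted p = 8.87e-06), kept under all alternatives in which it could be tested, and with cycloheximide over PDGF its log2 change was −0.90 ± 0.30 SE (edgeR adjusted p = 0.0109), lost without replicate 3 of either group (edgeR adjusted p up to 0.0853). It was not tested on protein-coding transcripts alone, which carried 9 reads without PDGF, 26 with PDGF, 6 with rapamycin, 14 with cycloheximide and 15 in TerminaTOR cells, beside 40, 101, 139, 62 and 73 reads on retained-intron transcripts. The reads behind the high rapamycin level thus lay mostly on the type that is not annotated as coding. Coding transcripts hold 174 of the 474 bases of *Psmg1* that belong to a single transcript. These reads therefore do not give the share of each type in the RNA.

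*Psmd5* (chr2:34849734-34874968 on the minus strand of GRCm38) encodes a chaperone that holds ATPases of the base apart from the core until assembly. It stood at 15.4, 15.7 and 12.2 CPM without PDGF, 7.16, 10.9 and 5.59 CPM with PDGF, 3.34, 4.0 and 4.04 CPM with rapamycin and PDGF, 10.1, 15.9 and 10.9 CPM with cycloheximide and PDGF and 8.59, 10.4 and 12.8 CPM in TerminaTOR cells. The unstimulated libraries lay above the PDGF ones, and the rapamycin libraries below all others. By edgeR its log2 change was −0.89 ± 0.26 SE with PDGF (adjusted p = 0.00434), −1.03 ± 0.32 SE with rapamycin over PDGF (adjusted p = 0.00925) and 0.65 ± 0.27 SE with cycloheximide over PDGF (adjusted p = 0.0441). On protein-coding transcripts alone, with 184, 80, 19, 133 and 121 reads in the 5 groups, the rapamycin change was −1.82, and the cycloheximide rise was not called (0.45, edgeR adjusted p = 0.186). The PDGF call was lost without replicate 3 of the PDGF group (edgeR adjusted p = 0.0771), the rapamycin call without replicate 2 of the PDGF group (edgeR adjusted p = 0.136) or by limma-voom, and the cycloheximide rise without replicate 1 or 3 of the PDGF group or 2 or 3 of the cycloheximide group (edgeR adjusted p up to 0.293), by DESeq2, without the filter and with library totals.

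*Psmd9*, the base chaperone p27, stood at 29.6, 23.6 and 12.9 CPM without PDGF, 12.7, 17.3 and 13.5 CPM with PDGF, 8.63, 12.6 and 6.41 CPM with rapamycin and PDGF, 13.0, 11.8 and 16.7 CPM with cycloheximide and PDGF and 12.8, 13.6 and 16.2 CPM in TerminaTOR cells. One unstimulated library lay within the range of the PDGF libraries. By edgeR its log2 change was −0.61 ± 0.23 SE with PDGF (adjusted p = 0.0314) and −0.67 ± 0.26 SE with rapamycin over PDGF (adjusted p = 0.0427). Neither was called by DESeq2, by limma-voom or on protein-coding transcripts alone (edgeR adjusted p = 0.0778 and 0.166). The PDGF fall was lost without replicate 1 or 2 of the unstimulated group or 1 or 3 of the PDGF group, and the rapamycin fall without replicate 2 or 3 of the PDGF group or 1 or 3 of the rapamycin group, with adjusted p up to 0.339 and 0.254. *Psmg2*, the partner of *Psmg1*, had few reads and was not called in any comparison with all libraries; without replicate 2 of the rapamycin group it was called higher with rapamycin (1.65, edgeR adjusted p = 0.036).

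**Figure D4:**
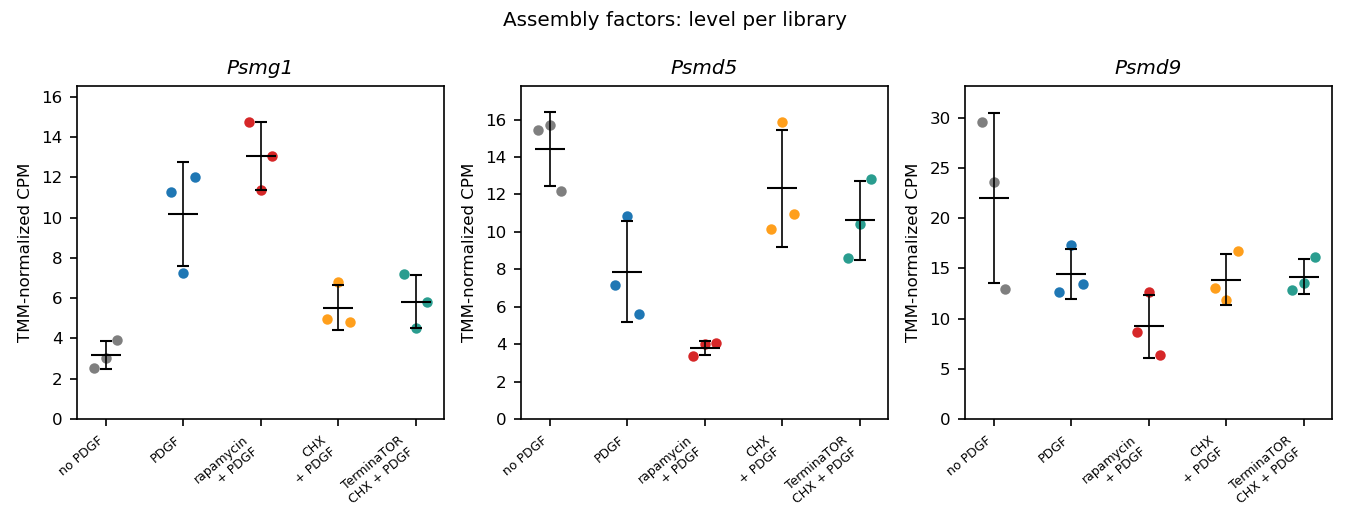
Level of 3 assembly factors in each library (points, TMM-normalized CPM, y axis from 0) by group, with the mean (horizontal line) and SD (error bars) of 3 libraries; CHX is cycloheximide. *Psmg1* is highest with PDGF and rapamycin at means of 10.2 and 13.1 CPM, and *Psmd5* is lowest with rapamycin at 3.79 CPM.

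TerminaTOR left the tested proteasome genes without a call. Under cycloheximide and PDGF, none of 28 genes passed edgeR's test between TerminaTOR and mCherry cells, beside 4.92% of all genes. For 28 genes a count of 0 is close to that share, so it does not set them apart. An unadjusted p under 0.05 was found for 2 of them. DESeq2 called 0, with 2 under 0.05 unadjusted, and limma-voom called 0, with 3. In 4 of the 28 the libraries did not overlap, beside 23.7% of all genes. Deeply read genes gave narrow intervals: −0.042 ± 0.073 SE on the log2 scale for *Psme3* (95% interval −0.19 to 0.10), 0.036 ± 0.057 SE for *Psme4* (−0.078 to 0.15), 0.020 ± 0.069 SE for *Psmc2* (−0.12 to 0.16), −0.059 ± 0.066 SE for *Psmd7* (−0.19 to 0.073) and 0.0074 ± 0.088 SE for *Psma5* (−0.17 to 0.18). For genes with few reads the interval stayed wide, as for *Psmg1* at 0.11 ± 0.31 SE (−0.51 to 0.72). The lowest adjusted p was that of *Psmd11*, with a log2 change of −0.42 ± 0.15 SE (95% interval −0.72 to −0.12, edgeR adjusted p = 0.101), and without replicate 2 of the cycloheximide group it was called lower at −0.60 (edgeR adjusted p = 0.0129). *Psmd1* was the other gene under 0.05 unadjusted, at 1.21 ± 0.54 SE (edgeR adjusted p = 0.231).

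Whether the change under rapamycin differed from that under TerminaTOR was tested directly, on groups that share no library. Of 28 genes 4 differed (2 without replicate 3 of the rapamycin group), all with the higher change under rapamycin in this fit, beside 24% of all genes in either direction, 11.6% higher and 12.4% lower. They were *Psme3* with a difference of 0.72 ± 0.10 SE on the log2 scale (edgeR adjusted p = 1.69e-08), *Psmd11* with 0.85 ± 0.22 SE (edgeR adjusted p = 0.00213), *Psme2b* with 0.77 ± 0.27 SE (edgeR adjusted p = 0.0251) and *Psmb1* with 1.88 ± 0.61 SE (edgeR adjusted p = 0.0158). The differences of *Psme3* and *Psmd11* were kept under all alternatives. That of *Psmb1* was lost without replicate 3 of the rapamycin group or replicate 1 of the TerminaTOR group (edgeR adjusted p up to 0.0612), without the filter and on protein-coding transcripts alone (1.94, edgeR adjusted p = 0.0964). That of *Psme2b* was lost without replicate 1 of PDGF, 2 or 3 of rapamycin, 3 of cycloheximide, or 2 or 3 of TerminaTOR (edgeR adjusted p up to 0.111), and without the filter or with library totals. With library totals 4 other genes were called with the lower change under rapamycin, *Psmd3* at −0.50, *Psmc2* at −0.26, *Psma4* at −0.59 and *Psme4* at −0.24, so that 3 were higher and 4 lower. On protein-coding transcripts alone *Psmd5* was called lower, at −1.60 (edgeR adjusted p = 0.00567). The rapamycin effect was measured without cycloheximide and the TerminaTOR effect with it, so inhibitor, place of inhibition and translation block cannot be told apart.

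Genes that work with the proteasome were taken from a list of 25 regulators and partners, of which 18 were tested. With PDGF 8 rose and 2 fell, with rapamycin over PDGF 5 rose and 4 fell, with cycloheximide over PDGF 3 rose and 3 fell, and with TerminaTOR 2 fell. In all genes the shares called in either direction were the 37%, 32.3%, 40.6% and 4.92% given above. With library totals 5 rose and 5 fell with PDGF, the rises of *Akirin2*, *Sem1* and *Zfand5* being lost (edgeR adjusted p = 0.061, 0.343 and 0.421), and 3 rose and 8 fell with cycloheximide. With single libraries left out 6 to 9 rose with PDGF, and 1 or 2 fell with TerminaTOR. *Pomp*, the chaperone that matures the beta ring and whose symbol lies outside the rule, stood at 2.36, 1.09 and 5.61 CPM without PDGF, 12.7, 7.75 and 10.4 CPM with PDGF, 12.0, 16.6 and 11.2 CPM with rapamycin and PDGF, 5.38, 6.30 and 7.87 CPM with cycloheximide and PDGF and 6.87, 6.29 and 6.41 CPM in TerminaTOR cells, and it rose by 1.72 ± 0.34 SE with PDGF (edgeR adjusted p = 1.82e-05). *Nfe2l2*, which encodes NRF2, stood at 488, 498 and 453 CPM without PDGF, 1433, 1605 and 1534 CPM with PDGF, 2123, 2392 and 2366 CPM with rapamycin and PDGF, 926, 1031 and 969 CPM with cycloheximide and PDGF and 823, 846 and 865 CPM in TerminaTOR cells. It rose by 1.67 ± 0.059 SE with PDGF (edgeR adjusted p = 3.45e-37) and by 0.59 ± 0.057 SE with rapamycin over PDGF (edgeR adjusted p = 3.61e-14). Under cycloheximide it fell: the log2 change was −0.64 ± 0.057 SE with cycloheximide over PDGF (edgeR adjusted p = 8.15e-16). TerminaTOR cells were lower still, at −0.21 ± 0.057 SE against mCherry cells (edgeR adjusted p = 0.017), the last lost without replicate 2 or 3 of cycloheximide or 1 or 2 of TerminaTOR (edgeR adjusted p up to 0.14).

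*Nfe2l1*, which encodes NRF1, had few reads and stood at 4.54, 3.71 and 4.11 CPM without PDGF, 10.2, 6.46 and 4.56 CPM with PDGF, 18.9, 13.5 and 12.6 CPM with rapamycin and PDGF, 0.827, 3.53 and 2.88 CPM with cycloheximide and PDGF and 1.72, 3.34 and 2.44 CPM in TerminaTOR cells. It rose by 1.11 ± 0.32 SE with rapamycin over PDGF (edgeR adjusted p = 0.00496), lost without replicate 3 of PDGF or 1 of rapamycin (edgeR adjusted p up to 0.0759). With cycloheximide its log2 change was −1.54 ± 0.39 SE (edgeR adjusted p = 0.000856). Both comparisons of *Nfe2l1* could be tested in 7 of the 8 alternatives other than leaving out libraries. The type of transcript that carried its reads was not examined. Small Maf proteins pair with NRF1 and NRF2 on DNA. *Maff* rose by 3.51 ± 0.40 SE with PDGF (edgeR adjusted p = 2.35e-11), by 1.15 ± 0.25 SE with rapamycin over PDGF (edgeR adjusted p = 0.000117) and by 1.51 ± 0.24 SE with cycloheximide over PDGF (edgeR adjusted p = 2.23e-07). *Mafg* stood at 428, 432 and 400.0 CPM without PDGF, 826, 797 and 816 CPM with PDGF, 827, 818 and 815 CPM with rapamycin and PDGF, 716, 794 and 775 CPM with cycloheximide and PDGF and 643, 639 and 636 CPM in TerminaTOR cells, and with TerminaTOR it fell, with a log2 change of −0.25 ± 0.056 SE (edgeR adjusted p = 0.00172), kept with any library left out. *Vcp*, the segregase that hands unfolded clients to the proteasome, fell with rapamycin, with a log2 change of −0.68 ± 0.090 SE (edgeR adjusted p = 3.82e-07). *Zfand5*, a proteasome-activating protein, rose by 0.86 ± 0.073 SE with cycloheximide (edgeR adjusted p = 1.77e-16).

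Of 6 genes for ubiquitin and its activating enzymes, 5 were tested. With PDGF 3 rose and 1 fell, and with cycloheximide 2 rose and 1 fell. In all genes the shares called in either direction were 37% with PDGF, 40.6% with cycloheximide, 32.3% with rapamycin and 4.92% with TerminaTOR. None passed the test with rapamycin or with TerminaTOR by edgeR, DESeq2 or limma-voom, with 1 and 0 genes under an unadjusted p of 0.05 in each tool. With rapamycin 1 rose without replicate 3 of the rapamycin group, with the replicate block or with the compared groups alone. With PDGF 2 rose with library totals, and 1 to 2 with single libraries left out. The rise of *Rps27a*, a ubiquitin fusion gene, was lost in each of those cases (edgeR adjusted p up to 0.107). *Ubb*, a polyubiquitin gene, stood at 123, 113 and 105 CPM without PDGF, 84.5, 89.4 and 93.0 CPM with PDGF, 92.2, 103 and 85.3 CPM with rapamycin and PDGF, 272, 339.6 and 268 CPM with cycloheximide and PDGF and 265, 249 and 280.3 CPM in TerminaTOR cells, and it rose by 1.72 ± 0.086 SE with cycloheximide over PDGF (edgeR adjusted p = 9.33e-28), with all 6 libraries under cycloheximide above all others. *Uba6*, an activating enzyme, rose by 0.91 ± 0.091 SE with PDGF and by 0.76 ± 0.085 SE with cycloheximide (edgeR adjusted p = 1.49e-13 and 8.37e-12).

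Of 12 genes for antigen processing, the use of proteasome peptides on class I molecules, 6 were tested. With PDGF 2 rose, with rapamycin 3 rose and 2 fell, with cycloheximide 3 rose and with TerminaTOR 1 rose, beside the same shares of all genes. Most of these counts rest on the scaling or on single libraries. Both PDGF rises, of *B2m* and the chaperone *Calr*, were lost with library totals (edgeR adjusted p = 0.921 and 0.235). The cycloheximide rises of *H2-K1* and of *Pdia3*, a disulfide isomerase, were each lost without replicate 2 or 3 of cycloheximide or 3 of PDGF, *H2-K1* also without replicate 2 and *Pdia3* without replicate 1 of PDGF (edgeR adjusted p up to 0.15 and 0.239). With library totals 1 gene rose and 1 fell with cycloheximide. The TerminaTOR rise was that of *Pdia3*, lost without any 1 of the 6 libraries except replicate 2 of the cycloheximide group (edgeR adjusted p up to 0.347). The rapamycin fall of *Calr* was lost without replicate 1 or 2 of PDGF or 2 or 3 of rapamycin (edgeR adjusted p up to 0.158), and on protein-coding transcripts alone (edgeR adjusted p = 0.166). *B2m*, the light chain of class I, stood at 962, 936 and 836 CPM without PDGF, 1038, 1129 and 1069 CPM with PDGF, 1479.8, 1577 and 1538 CPM with rapamycin and PDGF, 1016, 1022 and 981 CPM with cycloheximide and PDGF and 983, 963 and 949 CPM in TerminaTOR cells. The rapamycin libraries lay above all others, with a rise of 0.51 ± 0.056 SE over PDGF (edgeR adjusted p = 5.75e-12), and *Erap1*, which trims the peptides, rose by 1.55 ± 0.21 SE (edgeR adjusted p = 3.55e-09). *H2-K1*, a class I heavy chain of a near-identical family, had few reads, and its rise of 3.00 ± 0.76 SE with rapamycin (edgeR adjusted p = 0.00115) is uncertain because reads may be split between copies.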

How the data were processed

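RNA of 15 libraries was sequenced after poly-T capture, per the labels' protocols. The deposited values are whole-number read counts per mouse transcript, not normalized, made by the authors with HISAT2 2.2.1, HTSeq 0.9.1 and R 4.1.0, per the submitters' processing notes, which also name the human build hg38 although the identifiers are those of mouse transcripts. Of 142446 identifiers 141536 matched GENCODE M21 (GRCm38) with the version removed, and the 910 unmatched carried 0.0309% of counts. Counts were summed per gene. Strand is not stated, so antisense reads cannot be told apart.

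The 15 libraries entered 1 fit with edgeR 4.0.16 (quasi-likelihood F test, robust, 1 mean per group, 10 residual degrees of freedom) after filterByExpr and TMM scaling, and p-values were adjusted by Benjamini-Hochberg over 10603 genes, with calls under 0.05. Standard errors (SE) and 95% intervals were back-calculated from the F statistic. Floors for a count of 0 cover counting error only, since reads carry no molecular identifiers. Alternatives were library-total scaling, RLE size factors, no filter, DESeq2, limma-voom, a replicate block, the compared groups alone, protein-coding transcripts alone, and each library left out; the script was tested on simulated data. Replicates of a group differed beyond sampling noise (chi-square per degree of freedom 2.58 to 8.23). Full values were given for called genes with the largest change, up to 2 per class and direction, if their average log2 CPM was 1 or more, and for the catalytic subunits; other genes were added where a result turned on them. Members and lists were chosen with earlier results of these data known.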

Additional observations from a re-analysis of the deposited data

How the results depend on the processing

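Over 38 member calls in 5 comparisons, RLE size factors kept 38, the replicate block 37, the compared groups alone 36, limma-voom 32 and DESeq2 31, while library totals and no filter kept 25 each. Counts of called members that moved by over 1.5 times were, with library totals, 4 higher and 7 lower with PDGF, 2 higher and 7 lower with rapamycin, 3 higher with cycloheximide and 7 for the difference of effects, 3 higher and 4 lower. Without the filter they were 2 lower with PDGF, 2 higher with rapamycin, 3 higher with cycloheximide and 2 for the difference. DESeq2 gave 3 higher and limma-voom 2 lower with rapamycin. Protein-coding transcripts alone, with 22 of 28 members and 6499 genes tested, gave 2 lower with PDGF, 3 higher with rapamycin, and 3 higher and 3 lower with cycloheximide. There the rapamycin change of *Psmd8* reversed to −0.017, and with library totals the PDGF change of *B2m* reversed to −0.0079; the causes were not tested. Leaving out each library in turn gave 7 to 9 higher and 1 to 3 lower with PDGF, 3 to 4 and 2 to 5 with rapamycin, 3 to 5 and 2 to 5 with cycloheximide, 0 higher and 0 to 1 lower with TerminaTOR, and 2 to 4 for the difference.

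Deviations of libraries with the same replicate number correlated weakly, at −0.04 to 0.08 (median 0.0080), with 0 of 30 pairs above 0.1. Pairs with different numbers gave −0.08 to 0.06 (median −0.0036). Still, 9 of 15 libraries correlated best with a library of their own number. Whether the numbers mark paired libraries is therefore not known. With the replicate block 10 members rose and 4 fell with PDGF, 4 and 4 with rapamycin, 7 and 5 with cycloheximide, 0 with TerminaTOR, and 4 differed between effects. The single call lost was *Psmd8* with rapamycin. Depth limits the test: members with few reads, the catalytic subunits first, cannot show moderate changes.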
